A study of Mus musculus with 9 samples.

Results

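The genes described here set, keep, read or remove DNA methylation in regulatory T cells: the DNA methyltransferases Dnmt1, Dnmt3a and Dnmt3b, the maintenance factor Uhrf1, the methyl-CpG reader Mbd2, the TET dioxygenases Tet1, Tet2 and Tet3, and the DNA glycosylase Tdg. They were taken by symbol from the table of read counts, which held all 9 among its 34092 gene rows. Regulatory T cells are CD4 T cells that restrain immune responses and depend on the transcription factor Foxp3. RNA was sequenced from such cells, isolated from mice by sorting and left in the resting state. The mutant genotype, CNS2KO, carries the allele Foxp3deltaCNS2-gfp, which lacks the conserved noncoding element CNS2 inside Foxp3. The comparison genotype, WT, carries the allele Foxp3gfp. Both genotypes therefore have the green fluorescent reporter at Foxp3, and neither is an unmodified mouse. The labels list 3 CNS2KO and 6 WT samples. A CNS2KO sample and a WT sample are both numbered 407, and the columns with that number cannot be assigned to either, so they were left out and 2 CNS2KO libraries (399 and 408) were compared with 5 WT libraries (398, 402, 405, 1032 and 1037). The column names of WT 1032 and WT 1037 begin with R, and those of all other libraries used begin with YI. What the prefixes mean is not given, and no CNS2KO library used has the prefix R. The labels give no age, sex or tissue, and it is not stated that each sample is a different animal. The p-values therefore reflect only how much these samples varied, which may be technical.

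CNS2 is known as a CpG-rich enhancer that is methylated in conventional T cells and demethylated in stable regulatory T cells. DNA methylation is written by Dnmt3a and Dnmt3b and copied to the new strand at replication by Dnmt1, which Uhrf1 brings to hemimethylated sites. Removal starts when TET enzymes oxidize 5-methylcytosine, after which Tdg can excise the oxidized base, or when maintenance fails over cell divisions. Loss of Tet2 together with Tet3 in mouse T cells is known to raise methylation at CNS2, and Mbd2 is known to bind the element and to favour its demethylation. The comparison therefore asks whether the machinery that acts on CNS2 was transcribed at the same level in cells that lack the element.

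Promoter sequences from RefSeq on GRCm38.p6 were found for 8 of the 9 genes, as the 250 bases before the annotated start. Where several starts were listed, the window with the most CpG was taken. The build differs from that of the counts, so the coordinates describe the sequence only. The E2F-type letters TTTCGCGC, searched on both strands, are shown in capitals, because E2F factors are known to drive genes of DNA replication and these letters were found before the maintenance pair Dnmt1 and Uhrf1. In the first 2 lines below the letters stand in a stretch of 30 bases, at chr9:20952824-20952853 on the minus strand, where the match is on the opposite strand and begins 219 bases before the start, and at chr17:56304117-56304146 on the plus strand, where it begins 185 bases before the start.
Dnmt1: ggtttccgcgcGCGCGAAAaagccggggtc
Uhrf1: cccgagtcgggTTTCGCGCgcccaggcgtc
Tet2: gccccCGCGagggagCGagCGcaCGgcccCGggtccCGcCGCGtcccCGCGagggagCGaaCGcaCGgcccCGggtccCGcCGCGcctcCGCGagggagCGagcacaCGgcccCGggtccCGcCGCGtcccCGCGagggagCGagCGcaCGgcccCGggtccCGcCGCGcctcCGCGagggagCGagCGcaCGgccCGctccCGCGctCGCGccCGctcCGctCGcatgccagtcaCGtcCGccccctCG

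These 8 letters occurred in 74 of 27025 promoter windows of the same length, or 0.274%. With the related letters TTTGGCGC and TTTCCCGC, 1.61% of all windows held a match, against 2 of the 8 windows of these genes and 4 of 17 windows of the cell cycle genes that could be matched. These shares are not like for like, since the letters themselves hold CpG and the 8 windows had a median of 23.5 CpG. Of lists with similar medians, 0 of 8 windows of NuRD repressor genes (25.5 CpG) held a match. The same was found in 0 of 8 of other methyl-CpG readers and their relatives (22.5 CpG). Partners of maintenance methylation had 2 of 10 (21.5 CpG). The Tet2 window (chr3:133544391-133544640, minus strand) is shown for its CpG content, with each CpG in capitals. It held 51 CpG, the median over all windows being 6, and 5 copies of CCGCGAGGGAGCGA, the longest run of letters found that often. Windows of the other genes held 15 CpG (Tet1) to 40 CpG (Dnmt3a). A match is a description of the letters in the window and not a measured binding site.

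Before the results, the libraries were compared. Reads on genes ranged from 16557424 (WT 402) to 21836578 (CNS2KO 399), and levels below are counts scaled to library size (CPM, with TMM factors). CNS2KO 399 had the most reads but the fewest genes with a read, 14639. The number was 19206 in CNS2KO 408 and ran from 14810 (WT 402) to 18255 (WT 398) in WT. The part of this difference in the levels below was not tested. Foxp3 stood at 464 and 441 CPM in the CNS2KO libraries and between 410 and 607 CPM in WT, and Il2ra, which encodes the surface marker CD25, at 1749 and 1832 CPM in CNS2KO and between 1563 and 2193 CPM in WT. Of 12 regulatory T cell genes, 8 had positive and 4 negative fold changes, CNS2KO over WT (median 0.06 on the log2 scale), and 0 were called. The deleted element is noncoding, so these counts do not check the genotype labels. CNS2KO 399 stood apart in markers of red blood cells, whose sum over 8 erythroid genes was 159.6 CPM, against 31.8 CPM in CNS2KO 408 and 6.84 to 29.1 CPM in WT. Of the 6 erythroid genes that could be tested, 6 had positive fold changes (median 2.32 on the log2 scale). By edgeR 0 were called, and 3 (Hbb-b1, Hbb-b2 and Hba-a1, which encode globin chains) had an unadjusted p under 0.05. Over 8 B cell markers the sum was 1362 CPM in CNS2KO 399 and 1102 CPM in CNS2KO 408, against 1189.9 to 1508 CPM in WT. Most of this sum was the immunoglobulin gene Ighm, at 1075 and 940.0 CPM in CNS2KO 399 and 408. In CNS2KO 399, 3 of the 8 B cell markers lay above every WT library: Cd74 at 207 CPM against 131 to 161 CPM in WT, Cd79b at 48.1 CPM against 21.9 to 30.2 CPM in WT, and Cd79a at 14.4 CPM against 2.16 to 9.77 CPM in WT. Over 8 myeloid markers the sum was 79.7 and 95.5 CPM in CNS2KO, against 65.5 to 90.0 CPM in WT, and over 8 CD8 and NK cell markers 64.1 and 58.3 CPM in CNS2KO, against 54.2 to 72.7 CPM in WT. The myeloid lysozyme gene Lyz2 lay above every WT library in both, at 16.7 and 10.1 CPM in CNS2KO 399 and 408 against 0.182 to 9.27 CPM in WT. Of the erythroid genes tested, Hba-a2 did so too, at 9.79 and 3.25 CPM against 0 to 3.16 CPM in WT. In CNS2KO 399 alone, the cytotoxic cell genes Eomes (8.51 CPM against 0 to 1.99 CPM in WT) and Prf1 (25.2 CPM against 11.4 to 23.3 CPM in WT) did so. In CNS2KO 399, Blk of the B cell markers, Itgam of the myeloid markers and Cd8b1 and Gzmb of the CD8 and NK cell markers lay below every WT library. In CNS2KO 408, Ighm and Cd74 lay below every WT library, and Cst3 and Klrd1 were among those above. Genes of these lists that lay outside the WT range were picked out by their values. Over all genes tested, 19.8% lay below every WT library in CNS2KO 399 and 20.1% above. In CNS2KO 408 these shares were 9.48% and 12.8%, and 3.76% lay above every WT library in both. The erythroid gene Slc4a1 had 0 reads in CNS2KO 399 and in every WT library, and the NK cell receptor Ncr1 had 0 in every library. The B cell factor Pax5 had 0 reads in CNS2KO 399 and in WT 402, 405 and 1032. The other markers with 0 reads in CNS2KO 399 were Blk, Cd14, S100a9, Klrb1c and Klrd1. All of these but Blk also had 0 reads in a WT library. The part of RNA from red blood cells, B cells, myeloid cells or cytotoxic cells in the results below was not tested. In bulk samples, fewer cells of a type and less RNA per cell cannot be told apart.

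All 9 genes passed the filter on low counts. Per kilobase of exon (union of GENCODE M21 exons), Mbd2 was the highest in WT at 24.3 ± 8.05 CPM per kb (SD, n = 5), followed by Dnmt1 at 15.8 ± 2.72 CPM per kb, and their ranges overlapped. Tet2 (10.03 ± 1.29 CPM per kb), Dnmt3a (8.71 ± 1.94 CPM per kb) and Tet3 (8.29 ± 1.98 CPM per kb) formed the next step, with ranges that overlapped each other and lay wholly below that of Dnmt1. Tdg (4.02 ± 0.79 CPM per kb) lay wholly below these, and its neighbour Uhrf1 (3.78 ± 1.74 CPM per kb) overlapped it. The last were Dnmt3b (2.39 ± 1.08 CPM per kb) and Tet1 (1.87 ± 0.46 CPM per kb), whose ranges overlapped. The order by mean was the same in CNS2KO. With the longest annotated transcript in place of the union, Tet3 and Dnmt3a changed places. The authors' gene models may differ from this annotation, so the levels per length are approximate. Mbd2 has the least exon of the 9 (2.45 kb) and Tet1 the most (14.4 kb). Without division by length, Mbd2 had a WT mean of 59.4 CPM, below Dnmt1, Tet3, Tet2 and Dnmt3a (86.3 to 99.8 CPM). Whether reads were recovered evenly over long transcripts was not tested.

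No gene of the set passed the test for a difference between CNS2KO and WT, and every 95% interval included 0. edgeR's quasi-likelihood test with Benjamini-Hochberg adjustment called 0 of the 9 at a false discovery rate of 0.05, in a comparison in which it called 0 of 14424 genes (0%), and every adjusted p was 1.0. At an unadjusted p under 0.05 there were 0 of the 9, against 361 of 14424 genes (2.5%). The pair of CNS2KO libraries lay above every WT library in 0 of the 9 genes, and below every WT library in 0 of the 9, against 3.76% and 3% of all genes tested. Fold changes were positive for 3 and negative for 6 of the 9, where 52.6% of all genes tested were negative, and the median was -0.14 on the log2 scale, against -0.03 over all genes tested. DESeq2 and limma-voom also called 0 genes and gave 496 and 614 genes with an unadjusted p below 0.05. Of the 9, Dnmt1 was among those of limma-voom (unadjusted p = 0.0491, adjusted p = 0.99). When counts with known changes were simulated for these 7 libraries and 14424 genes, 40 of the 100 genes set to a 2-fold change were recovered, and 80 of the 100 set to a 4-fold change. A 2-fold difference in a single gene could therefore have been missed. The simulated counts were independent between genes, with a spread set by level alone and no trend with exon length. The shares recovered may thus not hold for the real libraries.

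**Figure D1:**
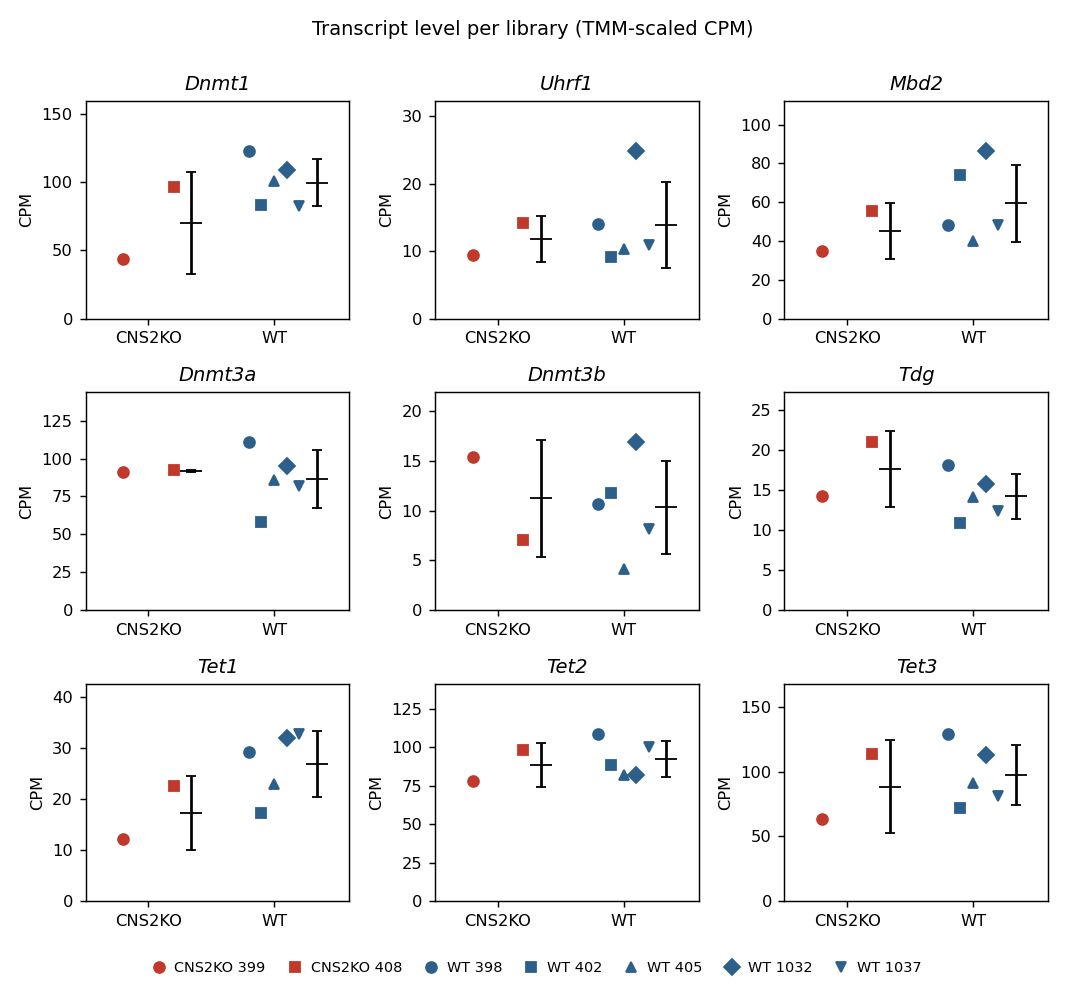
Transcript level of each gene (CPM, linear axis from 0) in the 2 CNS2KO libraries (left in each panel) and the 5 WT libraries, with 1 symbol per library. Bars are the mean and SD. CNS2KO 399 is the lowest of all 7 libraries in the panels of Dnmt1, Mbd2, Tet1, Tet2 and Tet3, and CNS2KO 408 is the highest in that of Tdg.

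The maintenance methyltransferase Dnmt1 had 43.9 and 96.6 CPM in CNS2KO 399 and 408, against 123, 83.4, 101, 109 and 82.8 CPM in WT 398, 402, 405, 1032 and 1037. CNS2KO 399 was far below every WT library, while CNS2KO 408 lay among them. This gave a log2 fold change of -0.51 (SE 0.29, 95% interval -1.15 to 0.14). The two-sided exact permutation test over 21 assignments gave p = 0.143, where the smallest possible p is 0.0476. Without CNS2KO 399 the log2 fold change was -0.04, and without CNS2KO 408 it was -1.20. The value thus rested on 1 library, whose 928 reads carry a counting error of 3.28%.

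Uhrf1, which recognizes hemimethylated CpG and recruits Dnmt1, had 9.36 and 14.2 CPM in CNS2KO 399 and 408, against 14.0, 9.17, 10.3, 24.8 and 10.9 CPM in WT 398, 402, 405, 1032 and 1037. The CNS2KO values fell within those of WT, and WT 1032 was far above the other WT libraries. Its log2 fold change of -0.23 had an SE of 0.44 and a 95% interval from -1.20 to 0.73, and the value was 0.08 without WT 1032. Dnmt1 and Uhrf1 are both known to be raised in dividing cells, so the cell cycle genes were set beside them. Over 20 cell cycle genes the summed level was 1012 CPM in CNS2KO 399 and 1086 CPM in CNS2KO 408, inside the WT range of 919.8 to 1165 CPM, and WT 1032 had the highest sum. Most of the sum came from genes of the Mcm helicase and of nucleotide synthesis, and single genes differed between the CNS2KO libraries. In CNS2KO 399, 5 of the 20 lay below every WT library and 3 above (Mcm7, Gins2 and Cdk1). The shares over all genes tested were 19.8% below and 20.1% above. The 5 included Top2a, a topoisomerase of dividing cells, at 30.2 CPM against 56.4 to 107 CPM in WT, and the proliferation marker Mki67 at 35.9 CPM against 38.2 to 76.1 CPM in WT. The cyclin gene Ccnb1 stood at 0.756 CPM in CNS2KO 399 against 6.64 to 11.7 CPM in WT, and Ccna2 and Tk1 were the other two. In CNS2KO 408, 4 of the 20 lay above every WT library: Top2a (119.5 CPM), Ccnb1 (12.6 CPM), Rrm1 and Tyms. There, 2 lay below (Mcm6 and Mcm3). The shares over all genes tested were 12.8% above and 9.48% below. CNS2KO 399, in which Dnmt1 was lowest, was lowest in 5 of the 20 cell cycle genes and highest in 3, all picked out by their values. The part of cell division in the levels of Dnmt1 and Uhrf1 was not tested.

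Of the de novo methyltransferases, Dnmt3a had 91.4 and 92.3 CPM in CNS2KO 399 and 408, against 111, 58.4, 86.0, 95.1 and 81.6 CPM in WT 398, 402, 405, 1032 and 1037. The CNS2KO libraries were nearly equal and stood between WT 405 and WT 1032. The difference on the log2 scale was 0.09 (SE 0.24, 95% interval -0.43 to 0.60). Dnmt3b, at a low level, had 15.4 and 7.08 CPM in CNS2KO 399 and 408, against 10.7, 11.8, 4.12, 16.8 and 8.19 CPM in WT 398, 402, 405, 1032 and 1037. The groups overlapped, and the WT libraries spanned 4.09-fold. The log2 fold change was 0.12 with an SE of 0.52. Its 95% interval, -1.02 to 1.27 on the log2 scale, includes a 2-fold change in either direction. Without CNS2KO 399 its log2 fold change was -0.54, and without CNS2KO 408 it was 0.57.

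In CNS2KO 399 the reads of Dnmt1 were 0.480 times those of Dnmt3a, while the same ratio was 1.05 in CNS2KO 408 and ran from 1.02 to 1.43 in WT. The two-sided exact permutation test on the log2 ratio gave p = 0.095. This ratio was picked after the values of both genes were seen, which the p does not allow for. GENCODE M21 lists a pseudogene copy of Dnmt3a and of Tdg, the close relative Dnmt3c beside Dnmt3b, and transcripts named as opposite strands of Dnmt3a and Dnmt3b. Use of strand in counting was not given, so the split of reads with these partners is uncertain.

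Among the TET enzymes, which oxidize 5-methylcytosine, Tet2 had 78.3 and 98.4 CPM in CNS2KO 399 and 408, against 109, 88.6, 81.6, 82.1 and 100.3 CPM in WT 398, 402, 405, 1032 and 1037. Tet2 was the steadiest of the 9 genes, with a coefficient of variation of 12.9% over the WT libraries. Its log2 fold change was -0.06 (SE 0.20, 95% interval -0.50 to 0.38), an interval that leaves out a change of 2-fold in either direction. Tet3 had 63.2 and 114 CPM in CNS2KO 399 and 408, against 129, 72.2, 91.3, 113 and 81.5 CPM in WT 398, 402, 405, 1032 and 1037. Here CNS2KO 399 lay below every WT library and CNS2KO 408 above the WT mean, which gave a log2 fold change of -0.14 with an SE of 0.28 and a 95% interval from -0.75 to 0.48. Without CNS2KO 399 and without CNS2KO 408 it was 0.23 and -0.64.

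Tet1 had 12.2 and 22.5 CPM in CNS2KO 399 and 408, against 29.3, 17.4, 23.1, 31.96 and 32.8 CPM in WT 398, 402, 405, 1032 and 1037. CNS2KO 399 was again below every WT library, and CNS2KO 408 lay between WT 402 and WT 405. Tet1 had the most negative log2 fold change of the 9, at -0.63 (SE 0.35, 95% interval -1.39 to 0.13, two-sided exact permutation p = 0.143). The value was -0.25 without CNS2KO 399 and -1.15 without CNS2KO 408. When WT 1032 and WT 1037 were left out it was -0.42, and that of Dnmt1 was lower, at -0.54.

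The thymine DNA glycosylase Tdg, which excises the final products of TET oxidation, had 14.2 and 20.9 CPM in CNS2KO 399 and 408, against 18.0, 10.9, 14.0, 15.7 and 12.4 CPM in WT 398, 402, 405, 1032 and 1037. It was the highest fold change of the set, at 0.31 on the log2 scale (SE 0.32, 95% interval -0.40 to 1.014), and CNS2KO 408 alone lay above every WT library. Without CNS2KO 408 the value was -0.01. The reader Mbd2 had 35.03 and 55.2 CPM in CNS2KO 399 and 408, against 48.2, 74.0, 40.1, 86.3 and 48.5 CPM in WT 398, 402, 405, 1032 and 1037. CNS2KO 399 was below every WT library by a small margin, and the difference on the log2 scale came to -0.40 (SE 0.33, 95% interval -1.11 to 0.32).

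**Figure D2:**
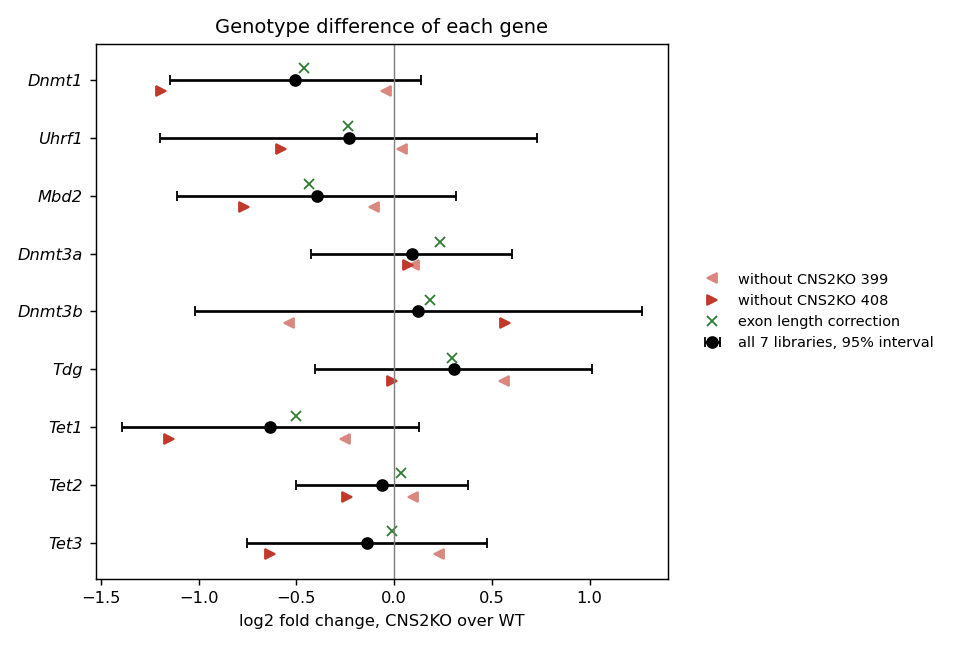
Log2 fold change of each gene, CNS2KO over WT, with its 95% interval (black), without CNS2KO 399 or CNS2KO 408 (triangles) and with a correction for exon length (crosses). Every interval crosses 0, and the values without CNS2KO 399 and without CNS2KO 408 lie far apart for Dnmt1 (-0.04 and -1.20) and close together for Dnmt3a.

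CNS2KO 399 lay below every WT library in 5 of the 9 genes (Dnmt1, Tet1, Tet2, Tet3 and Mbd2) and above every WT library in 0, where 19.8% of all genes tested lay below and 20.1% above. CNS2KO 408 lay below in 0 and above in 1 of the 9 (Tdg), against 9.48% and 12.8% of all genes. The CNS2KO libraries stood on opposite sides of the WT mean in 4 of the 9 genes (Dnmt3b, Tet2, Tet3 and Uhrf1), against 49.1% of all genes tested. The 9 genes had a median log2 deviation from WT of -0.46 in CNS2KO 399 and 0.10 in CNS2KO 408, against -0.01 and 0.07 over all genes tested. The WT libraries also differed among themselves, from -0.36 in WT 402 to 0.24 in WT 398. In WT 402, Dnmt3a, Tet1, Tet3, Uhrf1 and Tdg lay below the other 4 WT libraries, as did 23.1% of all genes tested, and in WT 398, Dnmt1, Dnmt3a, Tet2, Tet3 and Tdg lay above them, as did 15.7% of all genes tested.

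**Figure D3:**
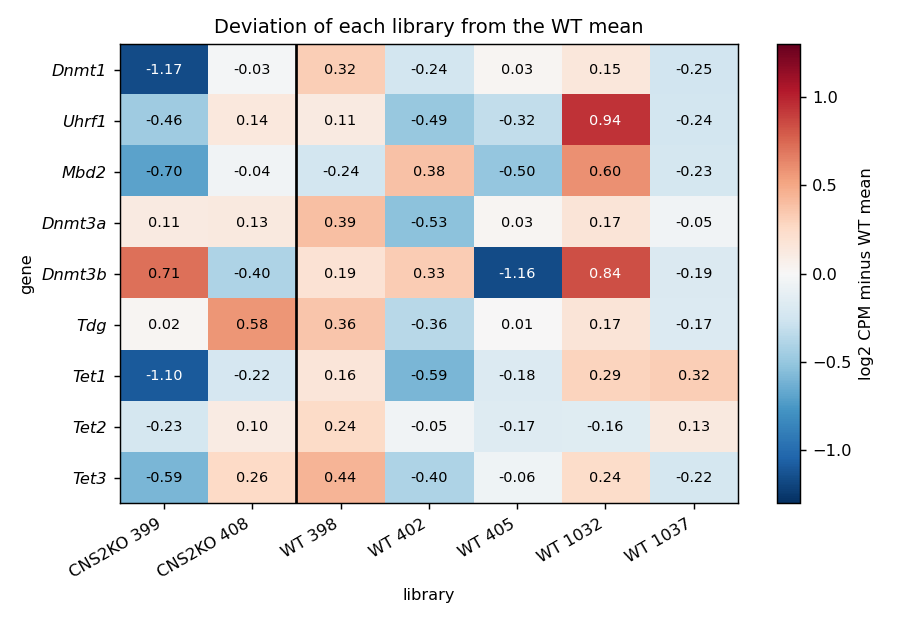
Log2 CPM of each gene (rows) minus its WT mean in each library (columns), CNS2KO libraries left of the line. The lowest values are those of Dnmt1 in CNS2KO 399 (-1.17) and Dnmt3b in WT 405 (-1.16), and the highest is that of Uhrf1 in WT 1032 (0.94).

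Exon length moved with these deviations. The union of exons could be matched for 12922 of 14424 genes tested (89.6%). The 2583 genes with the most exon (5.04 kb and more) include Dnmt1, Dnmt3a, Tet1, Tet2 and Tet3. Their median log2 deviation from WT was -0.26 in CNS2KO 399 and 0.11 in CNS2KO 408, and ran from -0.16 in WT 402 to 0.20 in WT 398. In the 2586 genes with the least exon it was 0.25 in CNS2KO 399 and -0.06 in CNS2KO 408, and ran from -0.21 in WT 398 to 0.26 in WT 1037. Of the 2583 long genes, 30.1% lay below every WT library in CNS2KO 399.

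A curve of deviation on exon length was then taken out of each library, a step chosen after seeing the data. For Tet2 the log2 deviation of CNS2KO 399 was -0.23 and the curve gave -0.26, which left 0.04. For Dnmt1 the deviation was -1.17 and the curve gave -0.23, which left -0.94, and for Tet1 the deviation of -1.10 left -0.80. For Tet3, -0.59 left -0.31, and for Mbd2, which has 2.45 kb of exon, -0.70 left -0.79. With the correction, edgeR's quasi-likelihood test again called 0 genes (404 at an unadjusted p under 0.05), and the log2 fold changes were -0.46 for Dnmt1 (95% interval -0.96 to 0.04), -0.50 for Tet1, 0.03 for Tet2, -0.01 for Tet3 and 0.23 for Dnmt3a. The median of the 9 was -0.01 with the correction, against -0.04 over all genes tested.

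**Figure D4:**
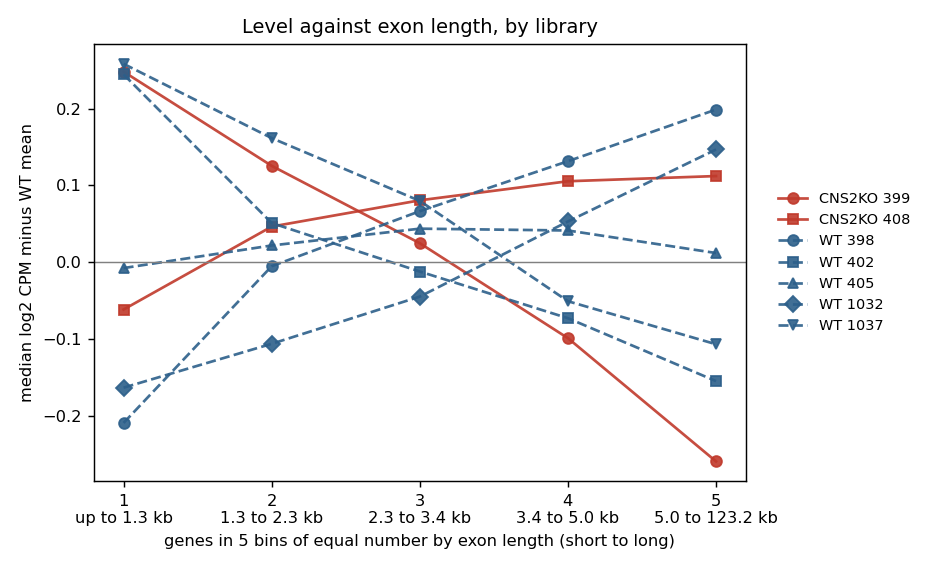
Median log2 CPM minus the WT mean over genes in 5 bins of equal number by exon length, from short (left) to long, with 1 line per library (CNS2KO solid, WT dashed). In the bin of the longest genes CNS2KO 399 lies lowest at -0.26 and WT 398 highest at 0.20, and CNS2KO 408 lies at 0.11.

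Across the 7 libraries, 29 of 36 pairs of these genes had a positive Pearson's r of log2 CPM, given here as a description over libraries that differ in how level varied with exon length. The highest was that of Dnmt1 with Tet3 (0.86 over 7 libraries and 0.97 over the 5 WT libraries), followed by Dnmt1 with Tet1 (0.81 and 0.39). Dnmt3a was closest to Tdg (0.79 and 0.96). The lowest values were those of Dnmt1 with Dnmt3b (-0.32 and 0.16) and Dnmt3a with Mbd2 (-0.32 and -0.30). Dnmt1 with Dnmt3a had 0.24 and 0.86. The share of positive pairs over all genes was not computed, so the 29 of 36 has nothing to be set beside.

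Among 8357 genes with a mean of at least 10 CPM, those whose levels over the 7 libraries were most like Dnmt1 were Mtap4, Dcaf7 and Inpp5e (Pearson's r of log2 CPM from 0.986 to 0.993). For Uhrf1 they were Phf20l1, Mga and Dock10 (0.980 to 0.987), for Dnmt3a Dhx38, Atrip and Padi2 (0.977 to 0.983), and for Dnmt3b Lpcat3, Tmbim1 and Rgs11 (0.9497 to 0.975). For Tet1 they were Zmat3, Myo1f and Mapre2 (0.959 to 0.964), for Tet2 Ppp2r4, Zc3h10 and Ptger1 (0.945 to 0.970), and for Tet3 Tnfrsf1b, Slx4 and Dpp8 (0.976 to 0.979). For Mbd2 they were Nudt6, Fig4 and Mfsd8 (0.956 to 0.987), and for Tdg Elmod2, Taok1 and Cbx5 (0.961 to 0.990). None of these was another gene of the set, and the highest of many values over 7 points is high by selection.

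None of the other genes of the pathway passed the test either. In the lists below, edgeR's quasi-likelihood test called 0 members at a false discovery rate of 0.05 and 0 had an unadjusted p under 0.05. Of 10 genes of other methyl-CpG readers and their protein relatives, 5 had positive and 5 negative fold changes (median -0.01 on the log2 scale). Zbtb38, the most abundant, had 249.7 and 259 CPM in CNS2KO, below the WT range of 272 to 321 CPM (log2 fold change -0.19). Such a separation towards lower values was found in 1 of these 10 genes, against 3% of all genes tested. Mbd1 had a log2 fold change of 0.01, and that of Mbd3, a subunit of the NuRD repressor, was 0.85 with an SE of 0.51. Of 10 measured partners of maintenance methylation, 5 were positive and 5 negative (median -0.01). The sliding clamp Pcna had 108 and 133 CPM in CNS2KO, against 90.4 to 138 CPM in WT (log2 fold change 0.18), Usp7, a deubiquitinase that binds Uhrf1 and Dnmt1, stood at -0.13, and the DNA ligase Lig1 at 0.40. The germline cofactor Dnmt3l had 0 reads in all 7 libraries.

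Downstream of the TET enzymes, 11 of 17 genes of base excision and deamination were positive (median 0.06). The cytidine deaminase Apobec3 stood at 0.01 and the abasic endonuclease Apex1 at 0.13. Neil1, a glycosylase of oxidized bases, had 16.4 and 18.1 CPM in CNS2KO, below the WT range of 20.2 to 28.4 CPM. Its log2 fold change was -0.48 (SE 0.27, unadjusted p = 0.100 and adjusted p = 1.0 by edgeR). Such a separation towards lower values was found in 1 of these 17 genes, against 3% of all genes tested. Of 13 measured TET partners and cofactor genes, 4 were positive and 9 negative (median -0.18). Ogt, the glycosyltransferase that binds TET enzymes, had 345 and 594 CPM in CNS2KO, against 402 to 722 CPM in WT (log2 fold change -0.22). In CNS2KO 399, 2 genes of this list lay below every WT library, Ogt among them, and 3 lay above. The shares over all genes tested were 19.8% below and 20.1% above. Ddb1, a subunit of the ubiquitin ligase that modifies TET proteins, stood at -0.18, and the isocitrate dehydrogenase Idh2, whose product 2-oxoglutarate is a TET cosubstrate, at -0.39.

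Of 12 genes that supply methyl groups, 6 were positive and 6 negative (median 0.01). Mat2a, which makes the methyl donor S-adenosylmethionine, had 716 and 497 CPM in CNS2KO, against 401 to 535 CPM in WT (log2 fold change 0.33, SE 0.18), with CNS2KO 399 above every WT library and CNS2KO 408 among them. Its regulatory partner Mat2b stood at 0.14. Of 11 genes of NuRD, the repressor complex that Mbd2 can join, 4 were positive and 7 negative (median -0.12). The histone chaperone Rbbp4 stood at -0.07, the deacetylase Hdac1 at 0.22 and Gatad2b at -0.78 (SE 0.43). In 2 of the 11, the remodeler Chd4 and Gatad2a, neither CNS2KO library reached the lowest WT library, as in 3% of all genes tested, and these were picked out by their values. Chd4 had 199 and 198 CPM in CNS2KO, against 211 to 285 CPM in WT. Of 20 cell cycle genes, 12 were positive and 8 negative (median 0.04), with the replicative helicase subunits Mcm6 and Mcm4 at -0.10 and -0.02 and the mitotic kinase Cdk1 at 1.001 (SE 0.47).

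**Figure D5:**
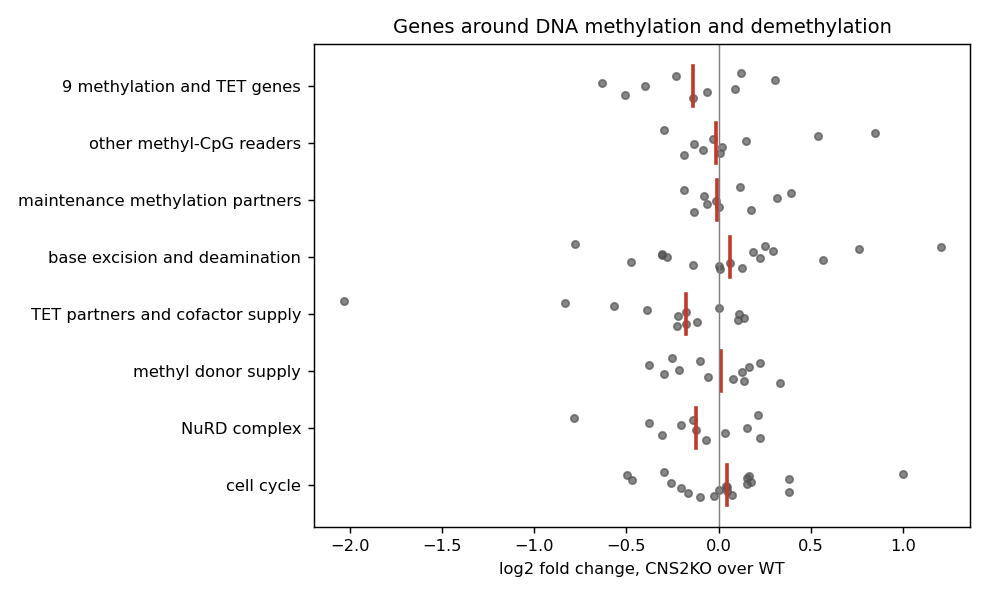
Log2 fold change, CNS2KO over WT, of each gene tested (points) in the 9 methylation and TET genes and in 7 lists of related genes, with the median of each list as a red line. Medians run from -0.18 (TET partners and cofactor supply) to 0.06 (base excision and deamination).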

How the data were processed

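Total RNA of sorted mouse regulatory T cells was amplified with a SMARTer kit and prepared for Proton sequencing, per the labels. Per the submitters' processing notes, the tools were STAR, BWA and edgeR on build mm9, without version numbers. For each gene symbol the authors deposited raw counts of reads and, in another table, log2 values. How the deposited log2 values were scaled, the counting tool and the gene annotation are not given in the sources used here. A further deposited table without named groups was not used. In each table, 2 columns numbered 407 were not used. Summary rows of the read counter (5) were left out, and reads on genes made up 22.0 to 23.7% of each column.

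The count table went through edgeR 4.0.16 in R 4.3.3, with filterByExpr, TMM scaling and its quasi-likelihood test (two-sided). P-values were adjusted by Benjamini-Hochberg over all genes tested, at a false discovery rate of 0.05. Each SE is the size of the log2 fold change divided by the square root of F. Log2 CPM used a prior count of 2. The limit that a count of 0 allows (3 counts) lies at 0.142 to 0.182 CPM by library, and reads carry no molecular identifiers, so floors and counting errors cover counting only. Exact permutation tests used log2 CPM, or the log2 ratio of reads for Dnmt1 over Dnmt3a.

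By rule, the genes named were the 9, Foxp3, up to 3 per pathway list (the highest 2 by mean CPM and the smallest p) and the 3 most alike over libraries. Chd4, Gatad2a, Dnmt3l and the marker and cell cycle genes outside this rule were named after their values were seen. The genes and lists were chosen with earlier results of these data known. The alternatives were 2 other scalings (relative log expression, upper quartile), other filters (none, or 10 CPM in 3 libraries), DESeq2 1.42.0, limma-voom (limma 3.58.1), a fit without WT 1032 and WT 1037, another with a term for those libraries, and each library left out. A limma fit of the deposited log2 values and an offset for exon length were added after seeing the data. The test was checked on simulated counts, where 1 of 14424 unchanged genes was called.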

Additional observations from a re-analysis of the deposited data

How the results depend on the processing

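No paired analysis was possible because the only number shared by both genotypes is 407, whose columns were not used. All 9 genes were below the threshold for a call in each of the 17 alternatives. The count of genes called was 0 in 16 of these and 8 (7 higher and 1 lower in CNS2KO) with no filter on low counts, where 21963 genes were tested, and 0 of the 9 were among the 8. Without each library in turn, log2 fold changes ran from -1.20 to -0.04 for Dnmt1, -0.58 to 0.085 for Uhrf1, -0.77 to -0.10 for Mbd2, -0.023 to 0.19 for Dnmt3a, -0.54 to 0.57 for Dnmt3b, -1.15 to -0.25 for Tet1, -0.24 to 0.10 for Tet2, -0.64 to 0.23 for Tet3 and -0.0088 to 0.56 for Tdg, and the median of the 9 from -0.58 to 0.041. The sign turned without CNS2KO 399 (Uhrf1, Dnmt3b, Tet2 and Tet3), CNS2KO 408 (Tdg), WT 398 (Tet2), WT 402 (Dnmt3a), WT 405 (Dnmt3b) and WT 1032 (Uhrf1). In the fits that leave 1 CNS2KO library, it is assumed to vary like the WT libraries. Uhrf1 turned to 0.078 when WT 1032 and WT 1037 were left out and to 0.077 when a term was added for libraries 1032 and 1037, and Tet2 to 0.033 with the exon length correction, and the cause was not tested. The unadjusted p of Dnmt1 was under 0.05 with limma-voom (0.0491), with no filter (0.0442) and without CNS2KO 408 (0.00318, adjusted p = 0.20 by edgeR), that of Tet1 without CNS2KO 408 (0.0268) and without WT 402 (0.0399), and the adjusted p of Dnmt1 was at least that in all 17. Both other scalings moved the median of all genes by less than 0.1 on the log2 scale. With 2 CNS2KO libraries, the 95% intervals of all but Tet2, Dnmt3a and Tet3 include a 2-fold change in at least 1 direction.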
